A study of Mus musculus with 32 samples.

Results

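The genes described here encode 6 proteins of the intermediate filament family: the neurofilament subunits Nefl, Nefm and Nefh, alpha-internexin (Ina), vimentin (Vim) and nestin (Nes). They were taken by name from 44081 genes with counts on 3′UTRs, and 5 of the 6 were among the 10880 genes that had at least 1 read in at least 16 libraries and were tested. Nes did not pass that filter. The samples were the soma and the dendrites of 16 single neurons, 32 libraries in all, grown for 15 days from the hippocampus of embryonic day 18 C57BL/6 mice and the labels give no treatment. The dendrites of each neuron were cut off with a micropipette, and both compartments were amplified separately by aRNA, a linear method that transcribes the captured poly-adenylated RNA in vitro. Neurons 1 to 4 had 3 rounds of amplification and neurons 5 to 16 had 2. The neurons came from several cultures, but which neuron came from which culture or animal is not given, so the p-values measure the spread between these neurons.

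Neurofilaments are polymers that fill axons and, more thinly, dendrites and set their caliber. Nefl is the core subunit that the others need to assemble, while Nefm and Nefh carry long, heavily phosphorylated tails that space the filaments. Ina, the fourth neuronal subunit, is made early in neuronal differentiation and later co-assembles with the triplet. Vim and Nes mark neural progenitors and are lost as neurons mature, and Vim stays on in astrocytes and in cells of mesenchymal origin. Filament proteins are made largely in the cell body and carried along processes. Pairing the soma with the dendrites of the same neuron asks how the RNA of each subunit divides between both compartments.

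Reads in these libraries fall near the 3′ ends of transcripts, so the ends of the 6 transcripts are shown first. For each member, a 30-base window was read around a polyadenylation signal, AATAAA or ATTAAA, within 40 bases of the annotated 3′ end. The sequence is that of the GENCODE transcript on GRCm38 (mm10). The signal that set the window is in capitals, and the Nefm window holds another AATAAA in lower case. The search ran on the transcript strand only, with overlapping matches counted, and 48.7% of 58791 annotated coding transcripts held either hexamer in their last 40 bases.
Nefl: cctgtgtgccatAATAAAatattgaaaaaa
Nefm: ctatagttctgaAATAAAaataaaagcatc
Nefh: ttgcttccatgcAATAAAaccaagtgcttc
Ina: gtaatctaagaaATTAAAagtcattaatcc
Vim: tgttactgcttcAATAAAtcttcaaaaata
Nes: cttcctcccttgAATAAAgctgtatcccta
The Nefl window lies at chr14:68089053-68089082 on the plus strand and the Nefm window at chr14:68119300-68119329 on the minus strand. That of Nefh is at chr11:4938764-4938793 on the minus strand, and on the plus strand are those of Ina at chr19:47025296-47025325, Vim at chr2:13582796-13582825 and Nes at chr3:87980415-87980444. All 6 windows are in the 3′UTR of the last exon. Ina was the member whose printed hexamer was ATTAAA. The annotated 3′UTRs were 1677 nt in Ina and 1648 nt in Nefl, with 6 and 9 hexamers of either kind, against 754 nt and 4 hexamers in Nefm (the transcript that ends at its own locus), 591 nt and 3 in Nefh, 421 nt and 1 in Nes, and 312 nt and 2 in Vim. A second annotated Nefm transcript runs on to chr14:68082590 and lies antisense to Nefl, and Nt5c2 lies antisense to Ina. Counting was strand-specific, so these neighbors were counted apart.

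The dendrite libraries held between 646521 and 6954420 reads on 3′UTRs, and the soma libraries between 925525 and 21169974. They carry no molecular identifiers and are reads rather than molecules. A dendrite library had between 1570 and 9871 genes with 10 reads or more, and a soma library between 6041 and 12185. The dendrites of neurons 15 and 16 stood apart with 1570 and 2485 such genes, and neuron 5 had 9871 in its dendrites against 6889 in its soma. The labels call the cells hippocampal neurons with no subtype. Of 6 GABAergic markers, all had reads in at least 8 somas, with a median of 17149 normalized reads for Gad1 and 6304 for Gad2. Of 7 pyramidal markers, 6 had reads in at least 8 somas, with soma medians of 120.0 for Grin1, 37.0 for Neurod6, 35.7 for Camk2a, 11.2 for Slc17a7 and 5.44 for Neurod2, and Slc17a7 had a median of 117 in dendrites. Map2, whose RNA is known to lie in dendrites, had a median of 5393 in dendrites and 907 in somas. No neuronal type was assigned here.

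Nefl had reads in all 32 libraries. Normalized reads, which are counts divided by DESeq2 size factors and not corrected for length, ranged in dendrites from 519.7 (neuron 8) to 12631 (neuron 4) with a median of 3080.0, and in somas from 83.6 (neuron 9) to 15317 (neuron 4) with a median of 3304. The groups overlapped throughout, and the soma range was the wider. Means were 3734 ± 2993 in dendrites and 4372 ± 4725 in somas (SD, n = 16 each). The dendrite was higher in 9 neurons and the soma in 7. Nefl fell above 99.6% of tested genes by its dendrite median and above 99.4% by its soma median.

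Neurons differed in direction. In neuron 9 the dendrites held 958 normalized Nefl reads and the soma 83.6. In neuron 16 they held 4135 and the soma 310.2. In the opposite direction, the dendrites of neuron 7 held 2947 and its soma 10814. Levels in both compartments of a neuron went together: across the 16 neurons the log2 Nefl level in dendrites had a Pearson r of 0.75 and a Spearman rho of 0.74 with that in the soma of the same neuron (0.67 and 0.73 over the 12 neurons with 2 rounds), a description over libraries that share a cell.

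Nefm, the medium subunit, was more uneven. Its dendrite values ran from 0 in neuron 16 to 4141 in neuron 2 with a median of 531, and its soma values from 0 in neuron 13 to 9839 in neuron 1 with a median of 502. Each zero was 0 reads on both 3′UTR and exons, which allows up to 1.73 CPM (counts per 1e+06 3′UTR reads) in dendrite 16 and 0.225 CPM in soma 13. Means were 1099.6 ± 1343 in dendrites and 1769.7 ± 2925 in somas (SD, n = 16 each). The dendritic read fraction, normalized dendrite reads over dendrite plus soma reads of a neuron, exceeded 0.9 in 4 neurons and was under 0.1 in 5. Many neurons were thus one-sided for Nefm. Dendrite and soma levels of a neuron had an r of 0.24 (−0.04 over the 12 neurons with 2 rounds).

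Nefh, the heavy subunit, ran from 1.02 (neuron 12) to 1910.1 (neuron 15) in dendrites with a median of 487, and from 0 (neuron 12) to 4581 (neuron 3) in somas with a median of 561. Neuron 12 had almost no Nefh in either compartment, 1 read in dendrites and 0 in the soma. The soma was higher in 12 of 16 neurons. Means were 597 ± 635 in dendrites and 1055 ± 1296 in somas (SD, n = 16 each). The dendrites of neurons 8, 13 and 16 held 7, 1 and 2 Nefh reads although their somas held 427, 978 and 2624.

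Ina was the steadiest member. Its dendrite values ran from 76.1 (neuron 15) to 1634 (neuron 10) with a median of 799, and its soma values from 567 (neuron 2) to 3796 (neuron 7) with a median of 1841. Means were 802 ± 437 in dendrites and 2007 ± 1044 in somas (SD, n = 16 each). The soma was higher in 13 of 16 neurons by normalized reads and in all 16 by raw reads, while the ranges of both groups overlapped. The coefficient of variation was 54.5% in dendrites and 52.0% in somas, where the median tested gene had 167% and 99.2%. The variance of the Ina dendritic fraction, 0.0280, was above that of only 5.11% of 10331 genes with at least 10 normalized reads in at least 5 neurons. These genes were not matched to Ina by level, and its medians lay above 97.1% of tested genes in dendrites and 98.7% in somas. Nefl, another member of high level, had a variance of 0.0569, above that of 18.3%, and coefficients of 80.1% and 108%. The part of level in the steadiness of Ina was not tested. Levels in dendrites and soma of a neuron had an r of −0.08 for Ina (−0.43 over the 12 neurons with 2 rounds).

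Vim, the filament protein of progenitors and glia, ran from 0 to 1236 (neuron 10) in dendrites with a median of 103, and from 0 to 269 (neuron 3) in somas with a median of 19.7. It had no reads in the dendrites of neurons 12, 15 and 16, which allows up to 1.42, 1.34 and 1.73 CPM, and none in the soma of neuron 15. The soma of neuron 1 had 0 Vim reads on the 3′UTR and 4 on exons. Means were 198 ± 301 in dendrites and 77.9 ± 107 in somas (SD, n = 16 each). The dendrite was higher in 10 neurons, the soma in 5 and neither in 1. The groups overlapped from 0 upward, and one library, the dendrites of neuron 10, lay far above the others.

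Nes had 3′UTR reads in 3 of 32 libraries: 97 in the soma of neuron 5, 8 in the dendrites of neuron 4 and 1 in the soma of neuron 2. It was therefore described and not tested, and no fold change is given. Exon counts showed it in more libraries, 7 dendrites and 8 somas, of which most held 9 reads or fewer. The dendrites of neurons 13, 14 and 6 held 580, 131 and 33 Nes exon reads, with 0 reads on the 3′UTR, while their somas held 2, 2 and 1.

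**Figure D1:**
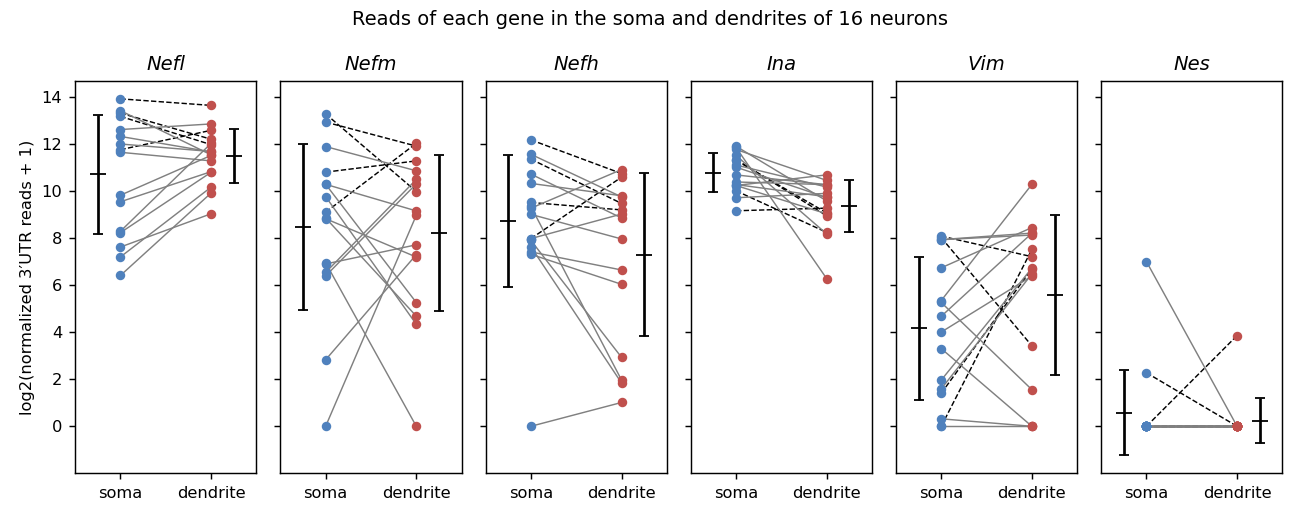
Normalized 3′UTR reads of each gene (log2 of reads + 1) in the soma (blue) and dendrites (red) of 16 neurons, with lines joining a neuron (dashed black for the 4 neurons with 3 rounds of amplification) and bars for mean and SD of the log2 values. Ina values lay close together in somas, from 567 to 3796 normalized reads, and spread wider in dendrites, from 76.1 to 1634. Nefm lines crossed in both directions, and Nes had reads in 3 libraries.

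The test across all genes asked whether the RNA of a member differed between dendrites and soma of the same neuron. None of the 5 tested members passed (edgeR quasi-likelihood test with neuron as a block, Benjamini-Hochberg adjusted p at most 0.05 over 10880 genes), where 6.53% of all genes passed, 0.827% on the dendrite side and 5.71% on the soma side. At an unadjusted p under 0.05 there were 2 members, Nefl and Ina, where 30.2% of all genes were. DESeq2, with the same block, called 2 of 5 members, Ina lower and Vim higher in dendrites, where it called 50.5% of all genes, 4.26% toward dendrites and 46.2% toward somas.

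On this scale, in which libraries were matched by TMM factors, Nefl was at a log2 fold change of 0.98, dendrite over soma (SE 0.47, 95% interval 0.03 to 1.93, edgeR adjusted p = 0.153). The value for Vim was larger but less certain, at 1.96 (SE 1.36, −0.78 to 4.69, edgeR adjusted p = 0.310). Ina was at −1.06 (SE 0.52, −2.10 to −0.02, edgeR adjusted p = 0.160) and Nefh at −0.95 (SE 0.72, −2.40 to 0.50, edgeR adjusted p = 0.354). Nefm was near 0, at −0.11, with an interval of −2.10 to 1.88 that holds large changes either way. Without neuron 15, Nefl passed the threshold at 1.37 (edgeR adjusted p = 0.0388), and without both neurons 15 and 16 it was at 1.00 (edgeR adjusted p = 0.117). The estimate for Nefm turned to 0.75 without those neurons (edgeR adjusted p = 0.730), and it was also above 0 when neuron 1, 5, 8, 14, 15 or 16 alone was left out (0.11 to 0.52).

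Directions depended on the scale, since the median gene was itself at −1.49 under TMM. Measured from that median, all 5 members were on the dendritic side in this fit, with Vim 3.45, Nefl 2.47, Nefm 1.38, Nefh 0.54 and Ina 0.43 log2 units above it. This did not hold in other fits for Ina, Nefh and Nefm. Relative to the median gene of each fit, Ina was at −0.97 and Nefh at −0.82 with no filter, and Ina was at −0.34 with 3 rounds alone. With no neuron block Ina was at −0.86, Nefh at −0.33 and Nefm at −0.08. Nefl stayed above the median gene there, by 1.05 with no filter, 0.80 with 3 rounds and 0.34 with no block. With dendrite libraries rescaled so that the median gene lay near 0, Nefl passed the test at 2.47 (edgeR adjusted p = 0.000114), where 5.88% of all genes passed, 5.04% toward dendrites and 0.846% toward somas, and Nefh and Ina turned positive without passing. A common rescaling moves every gene about alike, so it leaves the distance from the median gene nearly as it was.

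ERCC spike-in RNA gave a scale closer to the amount per compartment in the 14 neurons labelled as having it. There, Ina was at −3.57 (edgeR adjusted p = 0.00126) and Nefh at −3.54 (edgeR adjusted p = 0.00382), both called lower in dendrites, as were 61.4% of all genes against 0.147% called higher (61.6% in all), and the median gene was at −3.96. Nefm was at −2.26 and missed the threshold (edgeR adjusted p = 0.0522). Nefl turned negative, at −1.14 with an interval of −2.60 to 0.31 (edgeR adjusted p = 0.158), and Vim was at −0.01. By reads per spike-in read, the soma was higher for Ina in 13 of 14 neurons, for Nefh in 12, for Nefm in 11 and for Nefl in 9. For Vim the dendrite was higher in 7 and the soma in 6.

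**Figure D2:**
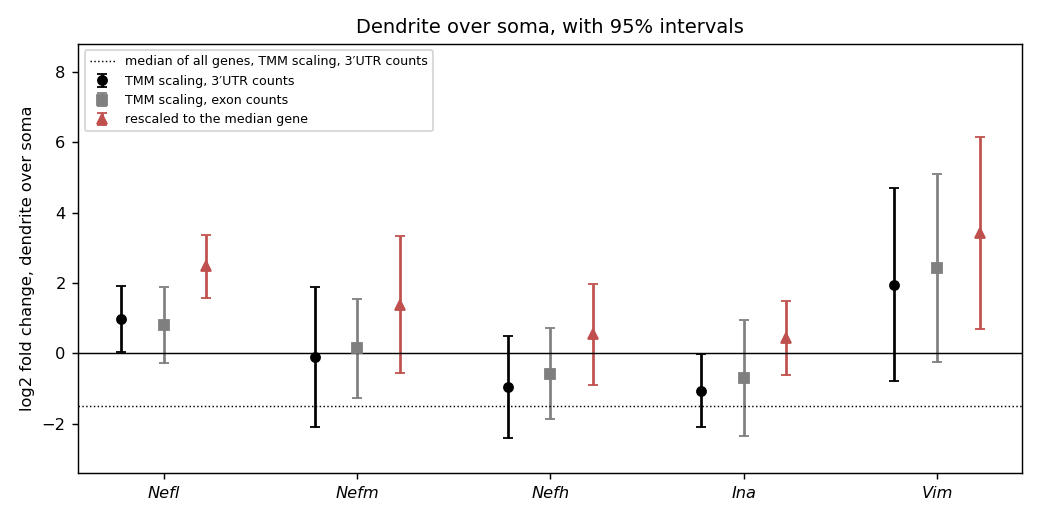
Log2 fold change, dendrite over soma, of the 5 tested genes with 95% intervals under TMM scaling of 3′UTR counts (black), TMM scaling of exon counts (gray) and rescaling to the median gene (red), with the median of all genes dotted. All 5 black points lie above the dotted line at −1.49, and Nefl at 2.47 under rescaling is the one called by edgeR.

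The rounds of amplification set the 4 neurons with 3 rounds apart from the rest. Their somas held 9490.1 ± 4869 normalized Nefl reads and 4972 ± 4515 Nefm reads (SD, n = 4), against 2666 ± 3358 and 702 ± 1066 (SD, n = 12) in somas with 2 rounds. Ina went the other way, with 1665 ± 1022 against 2121 ± 1069.8. In dendrites Nefl was at 6835 ± 3960.4 (SD, n = 4) with 3 rounds and 2701 ± 1809.9 (SD, n = 12) with 2. These differences between sets of neurons were not tested, and rounds cannot be told apart from whatever else differed between the neurons. The test of whether the dendrite over soma effect depended on rounds called 0 of 10880 genes (288 at an unadjusted p under 0.05, 2.65%), and each tested member had an edgeR adjusted p of 1.

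Shares within the 6 genes do not depend on the scaling between compartments, so they were taken for each library as the percent of the summed 3′UTR reads of the members. They were not corrected for 3′UTR length and were used to compare compartments, not genes. Nefl took 54.9% ± 15.0 of these reads in dendrites and 35.8% ± 21.0 in somas (SD, n = 16), and its share was higher in dendrites in 13 of 16 neurons. Ina took 18.8% ± 17.0 in dendrites and 39.1% ± 27.7 in somas (SD, n = 16), and its share was higher in somas in 14 of 16. On 3′UTR counts the mix of filament reads in dendrites was therefore shifted from Ina toward Nefl in most of these neurons, by 19.1 ± 21.0 and −20.3 ± 21.2 percentage points for Nefl and Ina (SD of the paired difference, n = 16, no test).

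On 3′UTR counts the remaining members shifted less. Nefm took 14.0% in dendrites and 12.2% in somas, higher in dendrites in 8 neurons and in somas in 8. Nefh took 8.28% and 11.3%, and Vim 4.03% and 1.42%. Without neurons 15 and 16 the Nefl shift was 15.9 ± 17.4 points and the Ina shift −18.3 ± 21.9 (SD, n = 14). In the 12 neurons with 2 rounds it was 24.2 ± 19.8 for Nefl, higher in dendrites in 11, and −25.4 ± 22.3 for Ina, higher in somas in 11. In the 4 with 3 rounds it was 3.86 ± 18.8 for Nefl, higher in dendrites in 2, and −5.15 ± 3.75 for Ina, higher in somas in 3. Shares taken from exon counts gave 4.70 ± 17.4 for Nefl, higher in dendrites in 9 of 16 neurons, and −7.37 ± 32.2 for Ina, higher in somas in 12 (SD, n = 16). As described below, exon counts of Nefl and Ina followed their more 5′ end more closely than the other. Exon shares therefore leave out part of the 3′UTR reads of these genes. On exon counts the shifts of Nefh, −7.77 ± 17.8, and Vim, 6.22 ± 10.5 (SD, n = 16), were larger than that of Nefl. The summed level of the 6 genes was 2586 ± 1758 CPM in dendrites and 3338 ± 2943 in somas (SD, n = 16), higher in dendrites in 8 of 16 neurons.

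**Figure D3:**
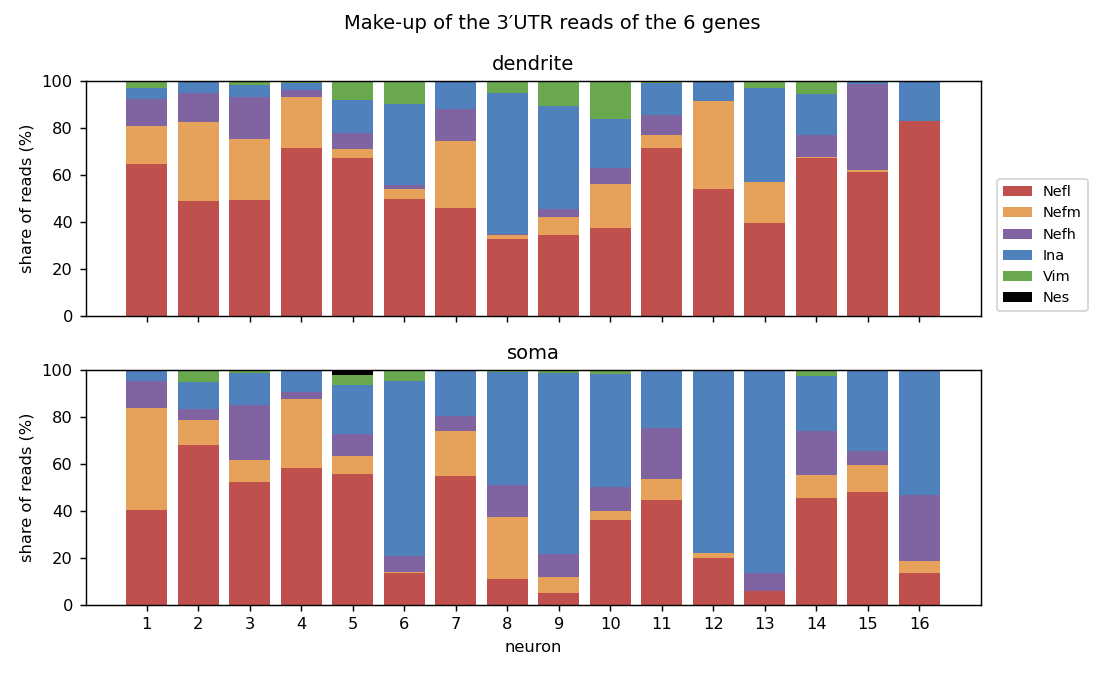
Percent of the summed 3′UTR reads of the 6 genes taken by each gene, by neuron, in dendrites (top) and somas (bottom). The Nefl share (red) averaged 54.9% in dendrites and 35.8% in somas, and the Ina share (blue) 18.8% and 39.1%.

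Reads were also counted separately on the last bases of each annotated 3′ end, and for each gene the more 3′ of its top 2 ends was called distal. Nefl and Ina used both of their ends. Of the Nefl end reads in dendrites, 31944 fell on the distal end and 19835 on the proximal one, and in somas 62106 and 81649. For Ina they were 7317 and 5282 in dendrites and 63865 and 22475 in somas. Nefm used its proximal end almost alone, with 26 distal reads in 1 soma and none elsewhere, and the proximal end is that of the shorter transcript shown above. Vim used its distal end for 99.4% of end reads in dendrites and 99.0% in somas, and Nefh had a single end.

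The distal fraction of Nefl, its distal reads over the reads of both ends, was 0.610 ± 0.243 in dendrites and 0.578 ± 0.207 in somas (SD, n = 16; exact two-sided signed-rank test, p = 0.433, adjusted p = 1). For Ina it was 0.688 ± 0.234 and 0.738 ± 0.0887 (SD, n = 16; exact two-sided signed-rank test, p = 0.632, adjusted p = 1). Neither member was called, and no gene was among 3522 tested at an adjusted p of at most 0.05 (0.00%), with 159 at an unadjusted p under 0.05. At p under 0.1 there were 8.40% of all genes and no member. The mean Nefl difference was 0.0313 ± 0.336 (SD, n = 16) and that of Ina −0.0497 ± 0.240.

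Single dendrite libraries were all or none at these ends. In the dendrites of neuron 16 Nefl had 2846 distal reads and 0 proximal ones. Those of neuron 15 had 0 distal and 1583 proximal reads, although the soma of that neuron had 12818 and 7129. The soma of neuron 9 had 674 distal and 0 proximal reads. For Ina the dendrites of neuron 13 had 0 distal and 414 proximal reads and those of neuron 15 had 45 distal and 0 proximal. The soma values of Ina stayed between 0.585 and 0.938, against 0 to 1 in dendrites.

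**Figure D4:**
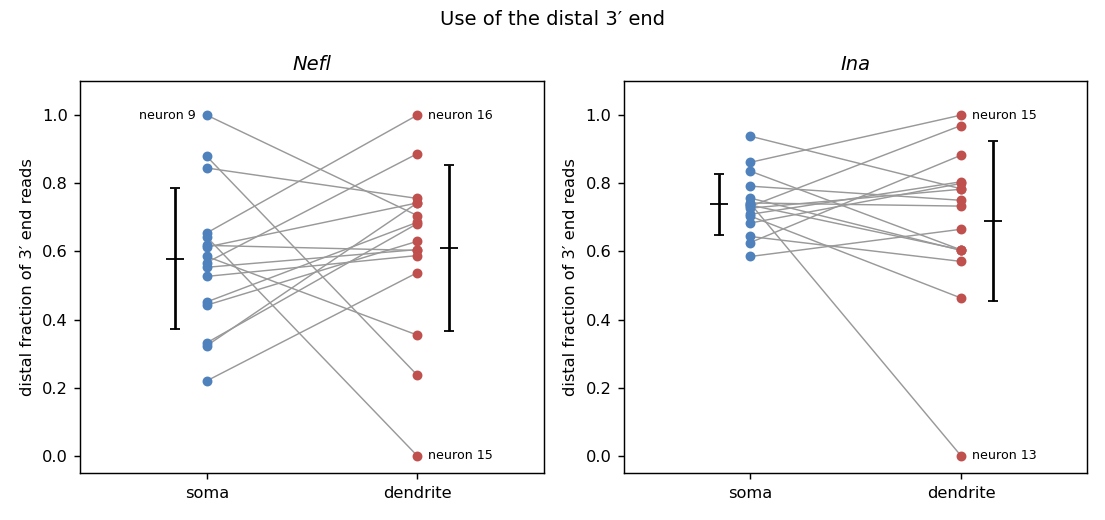
Distal fraction of the 3′ end reads of Nefl and Ina in the soma (blue) and dendrites (red) of 16 neurons, with lines joining a neuron and bars for mean and SD. Points at 0 or 1 are named by neuron, and the Ina somas stay between 0.585 and 0.938.

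Exon counts followed the proximal ends more closely than the distal ones. For Nefl the log2 exon reads of the 32 libraries had an r of 0.998 with log2 reads on the proximal end and 0.38 with those on the distal end, and for Ina 0.997 and 0.72, a description over libraries that share depth. Exon reads of Nefl and Ina were fewer than 3′UTR reads in all 32 libraries, 113823 against 202851 in sum for Nefl and 29017 against 108576 for Ina. Nefl in dendrite 16 had 2847 reads on the 3′UTR and 0 on exons. Nefh, by contrast, had more exon than 3′UTR reads in 13 dendrites and 16 somas. On exon counts edgeR put Nefl at 0.81 (95% interval −0.28 to 1.89, adjusted p = 0.346) and Ina at −0.70 (−2.35 to 0.95, adjusted p = 0.602), and it called none of the 5 members, where it called 3.62% of genes, 1.00% toward dendrites and 2.62% toward somas. On exon counts 0 members were at an unadjusted p under 0.05, where 24.3% of genes were.

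Members of the triplet varied together across somas. In somas the log2 levels of Nefl and Nefm had an r of 0.82 and a rho of 0.85 (n = 16), those of Nefl and Nefh 0.56 and 0.77, and those of Nefm and Nefh 0.56 and 0.80. Within the 12 neurons with 2 rounds Nefl and Nefm had an r of 0.76. In dendrites Nefl and Nefm had an r of 0.36, which was 0.14 without the 2 libraries farthest from the Nefl median and 0.06 within 2 rounds, while Nefl and Nefh had 0.57 and 0.48 within 2 rounds. Ina did not follow the triplet across all somas, with an r of 0.32 with Nefl and 0.10 with Nefm, although within the 12 neurons with 2 rounds it reached 0.66 with Nefl. These are descriptions over libraries that share depth and rounds, and the difference between compartments was not tested.

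Genes most like each member were ranked by Pearson r of log2(TMM CPM + 1) over the 32 libraries after the mean of each compartment was removed. For Ina they were Abhd8 (r = 0.80), Prkar1b (0.76), a regulatory subunit of protein kinase A, and Eif5a (0.73), a translation factor. For Nefh they were Krtcap2 (0.76), Bcar1 (0.75) and Spsb4 (0.73). For Nefl they were Zfp654 (0.69), Adamts15 (0.68) and Elfn1 (0.67), and Nefm stood seventh at 0.64. For Nefm they were Aifm1, Lsm11 and Nek7 (each 0.68), with Nefl thirteenth. For Vim they were Pde1a (0.77), Gstm1 (0.72) and Apoe (0.72), of which Gstm1 and Apoe are abundant in astrocytes.

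Vim moved with markers of astrocytes and, less evenly, of progenitors. The summed normalized reads of 8 astrocyte markers ran from 0 to 3374 in dendrites with a median of 951, and from 41.1 to 2130 in somas with a median of 716. Of the 8, 6 had reads in at least 8 dendrites and 3 in at least 8 somas. Slc1a2 and Aldoc had the highest medians of the list, and Gfap, the filament gene among the 8, had a median of 0 in both compartments and at most 27 reads. The log2 of that sum had an r of 0.71 and a rho of 0.72 with log2 Vim in dendrites and 0.56 and 0.54 in somas (n = 16 each), and 0.72 and 0.50 as r within the 12 neurons with 2 rounds. The 3 dendrites without Vim reads, those of neurons 15, 12 and 16, also had the lowest marker sums of the dendrites, 0, 169 and 184. They were the dendrite libraries with the fewest genes of 10 reads or more as well, 1570, 3794 and 2485, where the next had 4781. Progenitor markers had an r of 0.50 with Vim in dendrites and 0.55 in somas (0.78 and 0.58 within 2 rounds). Without the 2 farthest libraries these were 0.47 and 0.26, where astrocyte markers had 0.68 and 0.52. Hes5, a progenitor marker, had no reads in any library. Fibroblast and mural markers had −0.12 in dendrites and 0.28 in somas, or −0.04 and 0.49 without the 2 farthest libraries. Endothelial markers had 0.08 and 0.06, or −0.05 and 0.42. In each of both lists only 1 gene had reads in at least 8 somas. The part of these cells, and of the number of genes detected, in the Vim values was not tested. Without neuron 10 the Vim fold change was 1.57 (edgeR adjusted p = 0.466).

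**Figure D5:**
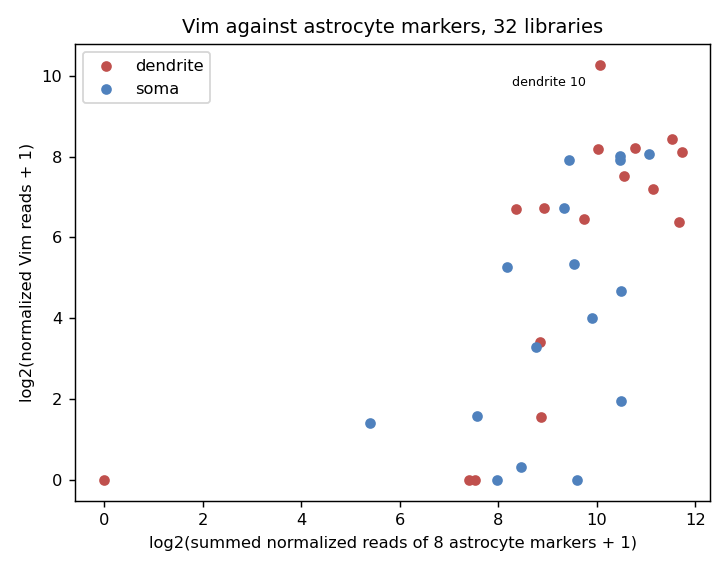
Normalized Vim reads against the summed normalized reads of 8 astrocyte markers (log2 of reads + 1) in 16 dendrite (red) and 16 soma (blue) libraries. The 3 dendrites without Vim have marker sums of 0, 169 and 184, and the highest Vim value, 1236 in the dendrites of neuron 10, lies at the top.

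Other genes of the filament system were taken as lists. Of 16 other intermediate filament genes, 7 were tested and 0 were called in either direction by edgeR, and at an unadjusted p under 0.05 there were 4, all toward the soma. Over all 10880 genes 2901 were at such a p toward somas and 386 toward dendrites, and 5.71% and 0.827% were called. Their median log2 fold change was −3.30, against −1.49 over all genes. The members with the largest values were the filament organizer Iffo1 at −5.01 (edgeR adjusted p = 0.0684) and the nuclear lamin Lmna at −4.12 (edgeR adjusted p = 0.0841). Prph, the peripheral neuronal subunit, had reads in 3 dendrites, at most 109.9 normalized reads, and in 0 somas. Gfap, the astrocyte filament, had reads in 6 dendrites and 4 somas. Neither Prph nor Gfap passed the filter.

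Linkers and motors, which tie filaments to other structures and carry them, showed a mixed picture. All 12 were tested, 1 was called higher in somas and 0 in dendrites, where 5.71% and 0.827% of all genes were, and their median was −0.74. At an unadjusted p under 0.05 there were 3 toward somas and 1 toward dendrites, where 2901 and 386 of all 10880 genes were. The called gene was Dync1i2, an intermediate chain of dynein, at −3.61 (SE 1.04, edgeR adjusted p = 0.0319), higher in the soma in 14 of 16 neurons, with medians of 48.1 normalized reads in dendrites and 574 in somas. Its paralog Dync1i1 was at −3.24 (edgeR adjusted p = 0.0568). The kinesin heavy chain Kif5c had the highest positive value of the list, 1.29 (edgeR adjusted p = 0.0711), and its dendrite value exceeded the soma value in 13 of 16 neurons. Kif5c and Klc1 were named after their values were seen, and the kinesin light chain Klc1 was higher in the soma in 16 of 16 neurons at −1.29 (edgeR adjusted p = 0.113).

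Kinases, phosphatases and turnover factors that act on neurofilaments gave no call. Of 14 genes 13 were tested and 0 were called in either direction by edgeR, where 6.53% of all genes were. At an unadjusted p under 0.05 there were 2, both toward the soma. Of all 10880 genes, 2901 were at such a p toward somas and 386 toward dendrites. Their median was −0.65, with 12 of 13 above the median of all genes. Ppp2r2a, a regulatory subunit of protein phosphatase 2A, was at −2.48 (edgeR adjusted p = 0.135). Of 3 RNA-binding proteins reported on neurofilament RNA 2 were tested and 1 was called, toward somas, where 5.71% of all genes were. Tardbp, which encodes TDP-43, was called higher in somas at −4.99 (SE 1.14, edgeR adjusted p = 0.0124) in 16 of 16 neurons, with medians of 20.9 normalized reads in dendrites and 768 in somas.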

How the data were processed

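RNA from the soma and the dendrites of 16 cultured mouse neurons was sequenced, giving 32 libraries, each matched to a labelled sample. The authors aligned reads with STAR 2.4.0 to mm10 and deposited raw counts of uniquely mapped, strand-specific reads, made with VERSE. One table holds the union of 3′UTRs of each gene, one holds single 3′ ends, and the per-sample files hold exons. The instrument of each library is not given in the sources used here. Depth ran from 646521 to 21169974 3′UTR reads.

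Counts were tested with edgeR 4.0.16 in R 4.3.3 (quasi-likelihood, TMM, neuron as block) for the 10880 genes detected (1 read or more) in 16 libraries or more. P-values were adjusted by Benjamini-Hochberg over all of them, at a threshold of 0.05. The SE of a fold change was its size over the root of F. DESeq2 1.42.0 was an alternative and gave the size factors. Distal fractions (at least 10 reads in each compartment) were compared by exact signed-rank tests in scipy 1.17.1. Figures were drawn with matplotlib 3.10.9. The edgeR comparison was tested on simulated counts that held no differences between neurons. Of 200 genes changed by 4 on the log2 scale, 73 were called, all in the right direction, and 1 unchanged gene was called. A gene that was not called may therefore still differ.

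Both compartments come from the same cell, so the pairing is by neuron. Deviations from compartment means had a correlation of 0.0854 ± 0.0766 (SD, n = 16) within a neuron and −0.00527 ± 0.0529 (SD, n = 240) between neurons. No libraries were identical. Limits for 0 counts (3 reads of the total) cover counting error only. Intervals of fold changes rest on their SE, which includes the spread between these neurons.

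The members and lists were chosen with earlier results of these data known. Besides the members, the text names called genes and the 2 largest changes of each list, Gfap, Prph, and the 3 genes most like each member; some genes that this rule names are not reported here. Alternatives were other scalings and filters, exon counts, no block, rounds apart and each neuron left out. The fit without neurons 15 and 16 and the TMM fit of neurons with spike-in were chosen after seeing the data.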

Additional observations from a re-analysis of the deposited data

Results flagged for a closer look

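Nes, the progenitor filament gene, had exon reads in libraries that held no Nes reads on the 3′UTR, the region the comparisons use. These were 580 in the dendrites of neuron 13, 131 in those of neuron 14, 33 in those of neuron 6, 9 in those of neuron 5, 8 in those of neuron 1, and 4 in the soma of neuron 1, all above the limit of 3 reads that a count of 0 allows. Vim had 4 exon reads and 0 3′UTR reads in the soma of neuron 1.

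Spike-in reads were present in the neurons labelled as having no spike-in. The dendrites of neuron 1 held 65, its soma 59, the dendrites of neuron 2 held 72 and its soma 80, all above the same limit of 3 reads. These neurons were left out of the spike-in scale.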

How the results depend on the processing

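As reported, 90 genes were called toward dendrites and 621 toward somas. Higher in dendrites were 463 genes with DESeq2, 548 after rescaling to the median gene, 16 on the spike-in scale, 15 with no filter, 157 with no replicate block, 43 in neurons with 2 rounds and 4 with 3. Higher in somas were 5029 with DESeq2, 1008 with DESeq2 size factors in edgeR, 92 after rescaling, 6681 on the spike-in scale, 143 with no filter, 257 on exon counts, 77 with no replicate block, 354 with 2 rounds, 1 with 3 rounds and 101 without neurons 15 and 16. Leaving out 1 neuron gave 56 to 120 in dendrites and 130 (without neuron 16) to 990 (without neuron 5) in somas. Without the pairing by neuron no member was called and no sign changed, but Nefl went from 0.98 to 0.12 (edgeR adjusted p = 0.945).

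Nefl was at 2.47 after rescaling, −1.14 on the spike-in scale, 1.40 with 2 rounds and 0.18 with 3, and at 0.79 to 1.39 with 1 neuron left out. Nefm was at 1.38 after rescaling, 0.14 under the stricter filter, 0.15 on exons, 0.46 with 3 rounds, 0.75 without neurons 15 and 16, and −0.49 to 0.52 with 1 left out. Nefh was at 0.54 after rescaling, −3.54 on the spike-in scale, 0.30 with 3 rounds, −0.57 on exons, and −1.18 to −0.42 with 1 left out. Ina was at −1.32 with DESeq2, 0.43 after rescaling, −3.57 on the spike-in scale, and −1.19 to −0.60 with 1 left out. Vim was at 1.91 with DESeq2, −0.0082 on the spike-in scale, and 1.54 to 2.68 with 1 left out. The Nefl distal difference was −0.0074 with 2 rounds, and the Nes share difference was 3.55 points on exons, against −0.139. Nes was fitted only with no filter. The cause of these changes was not tested.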
